A study of Mus musculus with 6 samples.

Results

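Genes that mark the cardiac conduction system were followed in RNA from mouse hearts, after base editing aimed at Camk2d. They are Cntn2, Pcp4, Hcn2, Hcn4, Gja5, Irx3, Etv1, Tbx3 and Scn10a, picked by symbol as markers of Purkinje fibres, of the nodes and of fast atrial or bundle conduction. They make 9 of the 35976 genes in the count table, and all 9 were among the 14879 genes with enough reads to test. The edited group held 3 libraries, from wild-type hearts given an adeno-associated virus that carried the adenine base editor TadA8e-Sauri under a MYL2 promoter, which is active in heart muscle, and the guide sgRNA7 against Camk2d under a U6 promoter. The control group held 3 libraries from wild-type hearts with no treatment. Nothing read here states age, sex, dose, interval, the part of the heart or whether each replicate is a separate animal, so any p-value measures the spread between these samples. The controls received neither virus nor editor, so the virus, the editor and the edit cannot be told apart.

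The heartbeat starts in the sinoatrial node, is delayed in the atrioventricular node, and then runs through the His bundle and its branches to the Purkinje fibres, which carry it quickly to the working muscle of the ventricles. Nodal cells are paced by HCN channels and kept out of the working-muscle program by T-box repressors, while bundle and Purkinje cells carry fast sodium channels and high-conductance connexins under factors such as Irx3 and Etv1. Conduction cells are a small part of the heart, and several of the 9 genes are also made elsewhere: Gja5 in atrial muscle and arterial endothelium, Hcn2 in working muscle, and Cntn2, Pcp4 and Scn10a in neurons. In bulk RNA of this kind, fewer cells of a type and less RNA per cell cannot be told apart.

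Total counts ranged from 17062412 to 23097998 per library. The targeted gene Camk2d, the main CaMKII gene of the heart, was at 138, 130 and 164 CPM (read counts scaled to a common library size, with TMM factors) in edited 1, 2 and 3, against 226, 220 and 224 CPM in control 1, 2 and 3 (log2 change, edited over control, -0.63, standard error (SE) 0.07, adjusted p = 4.76e-04 in edgeR's quasi-likelihood test). Without controls 1 and 3, the libraries described next, its log2 change was -0.60 (SE 0.12) and the call was lost (adjusted p = 0.0569). The ventricular light chain Myl2 was at 5108 to 5409 CPM in edited hearts and 5485 to 6897 CPM in controls, so all 6 libraries hold ventricle. Atrial transcripts set libraries apart. Myl7, the atrial light chain, was at 542, 371 and 914 CPM in edited 1, 2 and 3 and at 6.88, 332 and 0.209 CPM in control 1, 2 and 3. Controls 1 and 3 thus hold almost no atrial RNA by this gene, whereas control 2 comes close to the edited hearts in this gene. Control 2 differs from them in Bmp10, a gene of atrial muscle, at 0, 0 and 0.112 CPM in edited 1, 2 and 3 and 0.0598, 101.8 and 0.0522 CPM in control 1, 2 and 3, so setting edited hearts against control 2 does not match their atrial RNA in full. Because of these differences values are also given without controls 1 and 3, which leaves 1 control library, without control 2, and with Myl7 as a covariate.

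The 9 genes were chosen with the difference between edited and control hearts already known, so their levels and changes are given as a description, with no test of their own. Cntn2 and Pcp4, which Purkinje cells make, averaged 33.4% and 31.1% of the control level in edited hearts. They were the 2 of the 9 among the genes called at an adjusted p under 0.05, both lower. Of all 14879 tested genes, 9.66% were called, with 4.93% higher and 4.74% lower in edited hearts. For 5 of the 9 genes the edited and control values were apart, lower in edited hearts for Cntn2, Pcp4 and Tbx3 and higher for Gja5 and Irx3, as they were for 29.3% of all tested genes, and nothing is read from either count since the choice used this contrast. The median log2 change of the 9 was -0.27 and their median absolute change 0.36, beside 0.00 and 0.12 over all tested genes. Hcn2, Hcn4, Gja5, Irx3, Etv1, Tbx3 and Scn10a were not past the threshold. Of these, Gja5, Irx3 and Etv1 also belong to bundle and Purkinje cells. Their log2 changes were 0.65, 0.36 and -0.17, so the markers of these cells among the 9 did not all fall.

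**Figure D1:**
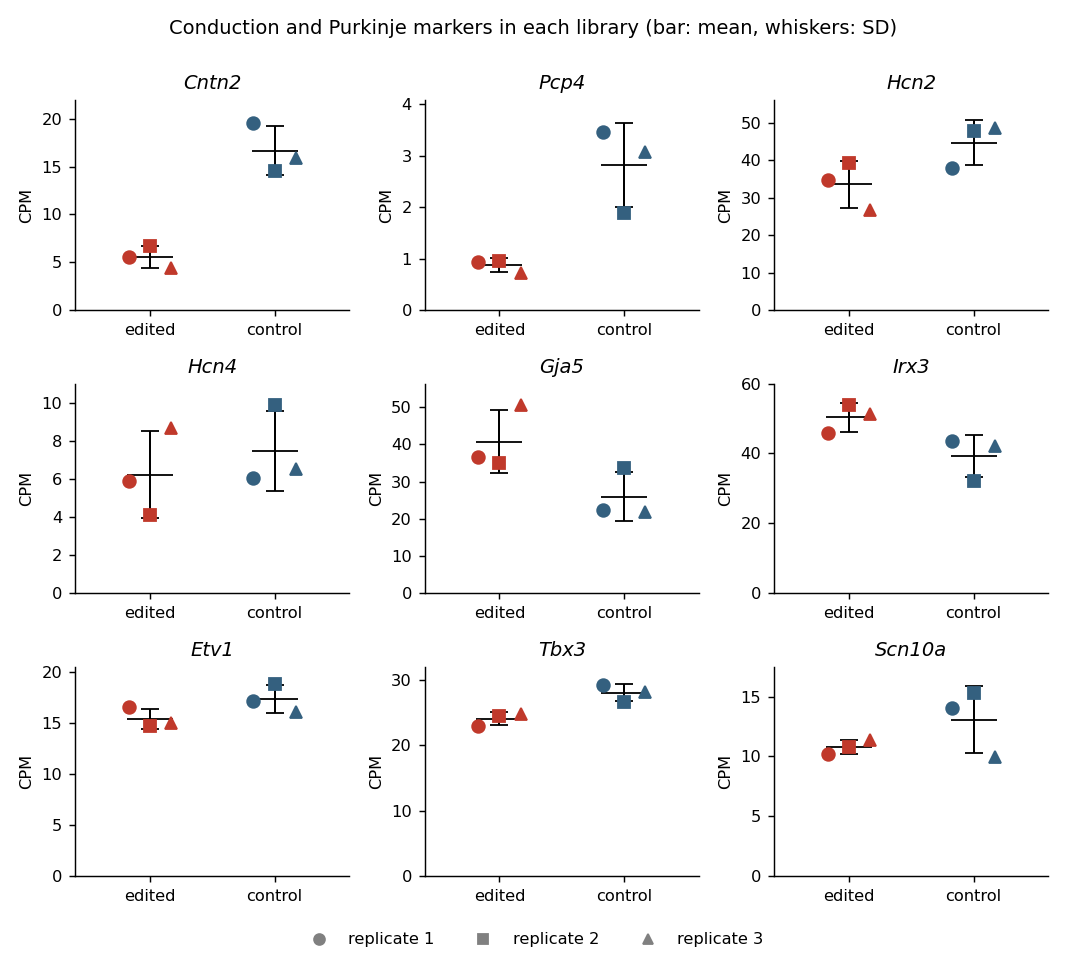
CPM of the 9 markers in each library (vertical axes, each starting at 0), edited left and control right, with replicates as symbols, the mean as a bar and whiskers of 1 SD. For Cntn2 the 3 edited libraries sit between 4.41 and 6.73 CPM and the 3 controls between 14.6 and 19.6 CPM, while for Hcn4 the groups overlap.

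Cntn2 encodes contactin 2, a cell adhesion molecule of the immunoglobulin family that outlines Purkinje cells in the mouse heart. It was at 5.54, 6.73 and 4.41 CPM in edited hearts, from 130, 119 and 79 reads, and at 19.6, 14.6 and 15.9 CPM in control hearts, from 327, 277 and 304 reads. The highest edited heart lay well below the lowest control. Its level in edited hearts averaged 33.4% of that in controls, with a log2 change of -1.58 (SE 0.15). In mm10 the gene spans positions 132509425 to 132543251 of chromosome 1, minus strand.

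Pcp4 encodes a short calmodulin-binding protein, named after the Purkinje neurons of the cerebellum and also made in cardiac Purkinje cells. It was at 0.938, 0.961 and 0.726 CPM in edited hearts, from 22, 17 and 13 reads, and at 3.47, 1.90 and 3.08 CPM in controls, from 58, 36 and 59 reads. Every edited heart was below every control, with control 2 the lowest of its group. The edited mean was 31.1% of the control mean, and the log2 change was -1.67 (SE 0.27). Pcp4 has the fewest reads of the 9, and counting error alone at these reads amounts to 24.0% in edited hearts and 14.0% in controls, beside a spread between libraries (coefficient of variation, CV) of 14.8% and 29.1%. Pcp4 spans positions 96467606 to 96525789 of chromosome 16, plus strand.

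Cntn2 and Pcp4 both kept their direction whichever libraries were compared, but the call of Pcp4 was lost without controls 1 and 3. There, with 1 control library, the log2 change of Cntn2 was -1.39 (SE 0.20) and that of Pcp4 -1.10 (SE 0.35). With Myl7 as a covariate the changes were -1.47 (SE 0.21) and -1.21 (SE 0.36), and Pcp4 was again not called, while Cntn2 was called in both settings. Without control 2 they were -1.67 (SE 0.16) and -1.89 (SE 0.25). Against control 2 alone, the one control with atrial RNA, every edited heart was still lower in both genes.

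The profiles of Cntn2 and Pcp4 over the 6 libraries, which include the difference between the groups, were among the nearest to each other. Among 12567 genes, likeness was measured as the root mean square distance between log2 CPM profiles, each centred on its own mean. The genes nearest to Cntn2 were Ankrd63 at 0.178, COX3 at 0.185 and Pcp4 at 0.185 log2 units, and those nearest to Pcp4 were Cntn2 at 0.185, COX3 at 0.204 and ATP6 at 0.221. COX3 and ATP6 are encoded by the mitochondrial genome and have near-identical nuclear copies, so their counts are uncertain.

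Sequence before the RefSeq transcription start was read from RefSeq on GRCm38.p6, the assembly behind mm10, for 8 of the 9 genes, and searched on both strands over 250 bases for letters bound by cardiac factors. The stretches shown precede the RefSeq starts of the pair of genes called lower and of the pair whose edited values all lay above the controls, and each holds a match. For Cntn2 the RefSeq start lies inside the gene as deposited, so its stretch is within the gene span given above and not upstream of it. Capitals mark AAGTG or its complement CACTT, the core bound by Nkx2-5, and, in Pcp4, GGTGTG, a core bound by T-box factors. Each reads 5′ to 3′ on the gene's own strand, and of Cntn2 only bases outside the deposited exons are shown (chr1:132543132-132543190, minus). Pcp4 is chr16:96467356-96467605, plus. Gja5 is chr3:97032152-97032401, plus. Irx3 is chr8:91801655-91801904, minus.
Cntn2: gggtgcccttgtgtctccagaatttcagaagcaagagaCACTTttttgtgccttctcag
Pcp4: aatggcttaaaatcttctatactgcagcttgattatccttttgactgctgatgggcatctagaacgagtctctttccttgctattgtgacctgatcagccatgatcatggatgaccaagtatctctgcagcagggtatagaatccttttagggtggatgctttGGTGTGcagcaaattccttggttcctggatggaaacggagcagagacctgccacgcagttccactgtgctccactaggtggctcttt
Gja5: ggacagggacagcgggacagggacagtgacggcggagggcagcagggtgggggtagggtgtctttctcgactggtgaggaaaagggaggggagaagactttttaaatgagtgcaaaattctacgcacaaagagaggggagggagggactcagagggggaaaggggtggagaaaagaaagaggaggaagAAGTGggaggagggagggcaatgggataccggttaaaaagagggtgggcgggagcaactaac
Irx3: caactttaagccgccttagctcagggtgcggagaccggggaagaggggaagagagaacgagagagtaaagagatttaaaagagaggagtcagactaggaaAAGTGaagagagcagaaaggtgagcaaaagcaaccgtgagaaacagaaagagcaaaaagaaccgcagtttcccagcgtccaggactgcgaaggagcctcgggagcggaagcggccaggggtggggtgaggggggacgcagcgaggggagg
AAGTG was found in the windows of 3 of the 8 genes, at position -212 in Cntn2, -62 in Gja5 and -150 in Irx3 counted from the RefSeq start, and is in 40.7% of 32851 promoters of the same length. GGTGTG was found in 1 of the 8, at -87 in Pcp4, and is in 16.3% of promoters. None of the 8 windows held ACANNTGT, the Iroquois site (6.3% of promoters), or AGATAA for GATA factors (10.0%). No match of AAGTG or GGTGTG overlapped another. The windows of Cntn2 and Pcp4 shared neither of the marked cores, and these are letters in a window, not measured binding.

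The pacemaker channels Hcn4 and Hcn2 gave no such separation. Hcn4, the main channel of the sinoatrial node, was at 5.88, 4.13 and 8.66 CPM in edited hearts and 6.04, 9.90 and 6.53 CPM in controls. The groups overlapped, with edited 3 and control 2 the highest of their groups (log2 change -0.27, SE 0.31). Hcn4 also had the widest spread of the 9 in edited hearts, a CV of 36.7%, against 28.1% in controls, where counting error accounts for 9.05% and 8.51%. Without control 2 its log2 change was -0.02 (SE 0.27), and without controls 1 and 3 it was -0.67 (SE 0.38).

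Hcn2, the HCN channel that also occurs in working muscle, was at 34.7, 39.2 and 26.8 CPM in edited hearts and 37.9, 47.8 and 48.6 CPM in controls. Edited 2 lay above control 1, so the groups overlapped, and the log2 change was -0.42 (SE 0.16). It shares 2.9% of its exon bases with the predicted gene Gm30480 on the opposite strand, and the sources used here do not say whether counting used strand. Hcn3, a scarce channel of the same family, was called higher, at 1.11, 0.565 and 0.893 CPM in edited hearts from 26, 10 and 16 reads, against 0.419, 0.211 and 0.261 CPM in controls from 7, 4 and 5 reads (log2 1.55, SE 0.40, adjusted p = 0.0277). The call of Hcn3, a gene singled out after its values were seen, was lost without edited 1, edited 3, control 2 or control 3, without controls 1 and 3 together, and with the Myl7 covariate.

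Per length, Hcn2 made up most of the summed transcripts of Hcn2, Hcn3 and Hcn4 in every heart. Its share of their summed TPM (levels per length, from the deposited exon lengths) was 85.7%, 91.0% and 77.1% in edited hearts and 87.5%, 84.9% and 89.5% in controls. Hcn4 took 12.2%, 8.05% and 21.0% in edited hearts and 11.7%, 14.8% and 10.1% in controls. Hcn2 thus led in all 6 libraries, and the share of Hcn4 was highest in edited 3 and lowest in edited 2.

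**Figure D2:**
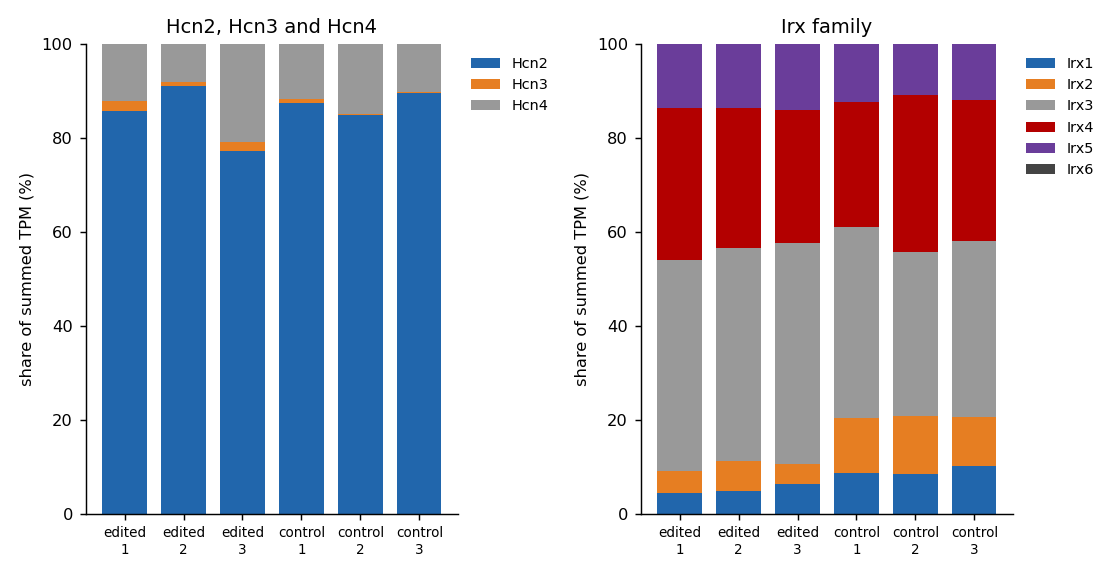
Share of the summed TPM of Hcn2, Hcn3 and Hcn4 (left) and the Irx family (right) taken by each gene in each library, edited libraries left of controls, in percent. Hcn2 takes 77.1% to 91.0% in every library, and Irx1 and Irx2 take less in each edited library than in each control.

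Gja5 encodes the fast connexin of atrial muscle, the bundle branches and Purkinje fibres, and it is also made by arterial endothelium. It was at 36.7, 35.1 and 50.6 CPM in edited hearts and 22.4, 33.6 and 21.9 CPM in controls. The edited hearts were all above the controls, but edited 2 and control 2 lay close together (log2 change 0.65, SE 0.25). The change depended on which controls were used: it was 0.88 (SE 0.17) without control 2, where Gja5 was among the genes called higher, 0.28 (SE 0.24) without controls 1 and 3 and 0.24 (SE 0.20) with Myl7 as a covariate. Of the other connexins, Gjc1, the connexin of nodal cells, stood at 64.6 ± 4.19 CPM in edited hearts and 61.7 ± 1.99 CPM in controls (SD, n = 3 each) and was not called (adjusted p = 0.564). Gja3 fell to 31.4 ± 1.48 CPM in edited hearts, against 37.5 ± 0.502 CPM in controls (log2 -0.25, SE 0.06, adjusted p = 0.0243). That call was lost without edited 3, control 1 or control 3, without controls 1 and 3 together, and with the Myl7 covariate.

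The transcription factors that set conduction identity showed small differences. Tbx3, a repressor that holds nodal cells out of the working program, was at 22.9, 24.5 and 24.7 CPM in edited hearts and 29.2, 26.7 and 28.2 CPM in controls. Each edited heart was below each control by a narrow margin, and the spread within groups was the smallest of the 9, with CVs of 4.20% and 4.56% (log2 change -0.22, SE 0.07). Tbx3 shares 1.4% of its exon bases with Tbx3os1 on the opposite strand. Etv1, an ETS factor needed for fast conduction in mice, was at 16.6, 14.8 and 15.0 CPM in edited hearts and 17.2, 18.8 and 16.1 CPM in controls, where edited 1 lay above control 3 (log2 -0.17, SE 0.09). Its change was -0.27 without controls 1 and 3 and -0.29 with the Myl7 covariate.

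Irx3, a homeobox factor needed for fast ventricular conduction in mice, was at 45.9, 54.0 and 51.1 CPM in edited hearts and 43.5, 32.2 and 42.1 CPM in controls. All edited hearts were above all controls, with edited 1 and control 1 close to each other (log2 change 0.36, SE 0.11). Here control 2 was the lowest control: the change was 0.23 (SE 0.08) without it, and 0.65 (SE 0.12) without controls 1 and 3 or 0.60 (SE 0.12) with the covariate, and in these last settings Irx3 was among the genes called higher. The profile nearest to Irx3 was that of its neighbour Irx5, at 0.030 log2 units over the 6 libraries.

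The Iroquois genes lie in 2 clusters, and 2 genes of the cluster without Irx3 fell. The 26 paralogues of the 9 markers, of which 20 were tested, held 2 that rose, Hcn3 and Tbx18, and 4 that fell, Gja3, Irx1, Irx2 and Scn4a. That is 30% of those tested, against 9.66% of all tested genes. Irx3 and Irx5 sit on chromosome 8, from 91798511 to 91801654 and from 92357796 to 92361456 in mm10, and Irx1, Irx2 and Irx4 on chromosome 13. Irx2 fell to 5.33, 8.43 and 5.14 CPM in edited hearts, against 14.1, 12.7 and 13.0 CPM in controls (log2 -1.08, SE 0.16, adjusted p = 0.00254). Irx1 fell to 3.88, 4.98 and 5.97 CPM, against 8.13, 6.69 and 10.1 CPM in controls (log2 -0.76, SE 0.18, adjusted p = 0.0224). For both genes the groups did not overlap, as for 29.3% of all tested genes, 14.7% with edited hearts lower. Irx4, the ventricular member beside them, was at 54.3 ± 3.72 CPM in edited hearts and 51.2 ± 4.38 CPM in controls (log2 0.08, SE 0.07, adjusted p = 0.523). Irx5 was at 15.3 ± 1.22 CPM in edited hearts and 12.3 ± 1.93 CPM in controls (SD, n = 3 each, log2 0.31, SE 0.11, adjusted p = 0.103).

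Per length, Irx2 made up less and Irx3 more of the family in edited hearts. Irx2 took 4.67%, 6.34% and 4.22% of the summed Irx TPM in edited hearts and 11.8%, 12.4% and 10.3% in controls, while Irx3 took 45.1%, 45.5% and 47.1% in edited hearts and 40.6%, 35.1% and 37.4% in controls. The groups were apart for both shares, but how often family shares come apart was not taken. The call of Irx1 was lost without edited 2, control 1 or control 3. Its log2 change was -0.44 (adjusted p = 0.529) without controls 1 and 3 and -0.41 (adjusted p = 0.489) with the Myl7 covariate. Without controls 1 and 3, and with the Myl7 covariate, Irx2 kept log2 changes of -1.01 and -1.02 but was not called (adjusted p = 0.145 and 0.0863).

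Scn10a encodes a sodium channel best known from sensory neurons. It was at 10.2, 10.8 and 11.3 CPM in edited hearts and 14.1, 15.3 and 9.92 CPM in controls. Control 3 lay below all 3 edited hearts and the other two controls above them, so the groups overlapped (log2 change -0.28, SE 0.14). Without control 3 the change was -0.45 and Scn10a was among the genes called lower. It was -0.50 (SE 0.14) without controls 1 and 3 and -0.61 (SE 0.14) with the Myl7 covariate, where Scn10a was not called. In mm10 it spans positions 119608456 to 119719322 of chromosome 9, minus strand. Scn4a, the skeletal muscle sodium channel, fell to 5.81 ± 0.261 CPM in edited hearts, against 11.6 ± 2.06 CPM in controls (50.2% of the control mean, adjusted p = 6.86e-04).

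Set by length, the 9 markers spanned a wide range within each group. In edited hearts Irx3 led at 48.9 ± 4.10 TPM, followed by Gja5 at 29.5 ± 6.69, Hcn2 at 24.1 ± 4.19 and Tbx3 at 10.3 ± 0.530 TPM. Hcn4 at 3.77 ± 1.44, Scn10a at 3.19 ± 0.212, Pcp4 at 3.15 ± 0.422 and Etv1 at 3.14 ± 0.190 TPM came next in edited hearts, and Cntn2 was last at 1.31 ± 0.256 TPM. In control hearts the order was Irx3 at 35.5 ± 5.12, Hcn2 at 29.9 ± 4.18, Gja5 at 17.5 ± 4.71, Tbx3 at 11.1 ± 0.375, Pcp4 at 9.42 ± 2.64, Hcn4 at 4.23 ± 1.25, Cntn2 at 3.66 ± 0.531, Scn10a at 3.62 ± 0.806 and Etv1 at 3.29 ± 0.295 TPM (SD, n = 3 each). Ranges of neighbours overlapped in edited hearts for Gja5 and Hcn2 and along the run from Hcn4 to Etv1, and in controls for Irx3 and Hcn2, for Tbx3 and Pcp4, and along the run from Hcn4 to Etv1. Cntn2 was thus apart from the rest at the bottom in edited hearts, while in controls its range overlapped those of Hcn4 and Scn10a.

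Within each group the markers were also set beside the atrial content of the library. Edited 3 had the most Myl7 of the edited hearts and control 2 the most of the controls. In both of these libraries Cntn2 and Pcp4 were the lowest of their group, 2 of the 9 genes, and Hcn4, Gja5 and Scn10a were the highest, 3 of the 9. Hcn2, Irx3, Etv1 and Tbx3 took different places in the 2 libraries. With 3 libraries a group these places are a description. The share of all tested genes with such places was not taken, so nothing is read from these counts. Of 11 atrial markers, 10 were tested and 2 rose, which is 20% of those tested, against 9.66% of all tested genes, and none fell. The list's summed level was 1471 to 3136 CPM in edited hearts and 216 to 2264 CPM in controls. Nr2f2, an atrial factor, was among those that rose (log2 0.35, SE 0.08, adjusted p = 0.0182), a call lost without edited 3, control 1 or control 3 and, at log2 changes of 0.24 and 0.19, without controls 1 and 3 together or with the Myl7 covariate. The part of atrial tissue in the marker levels was not tested. Myl7 was higher in every edited heart than in every control, so as a covariate it is tied to the group. Leaving out controls 1 and 3 leaves 1 control library.

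**Figure D3:**
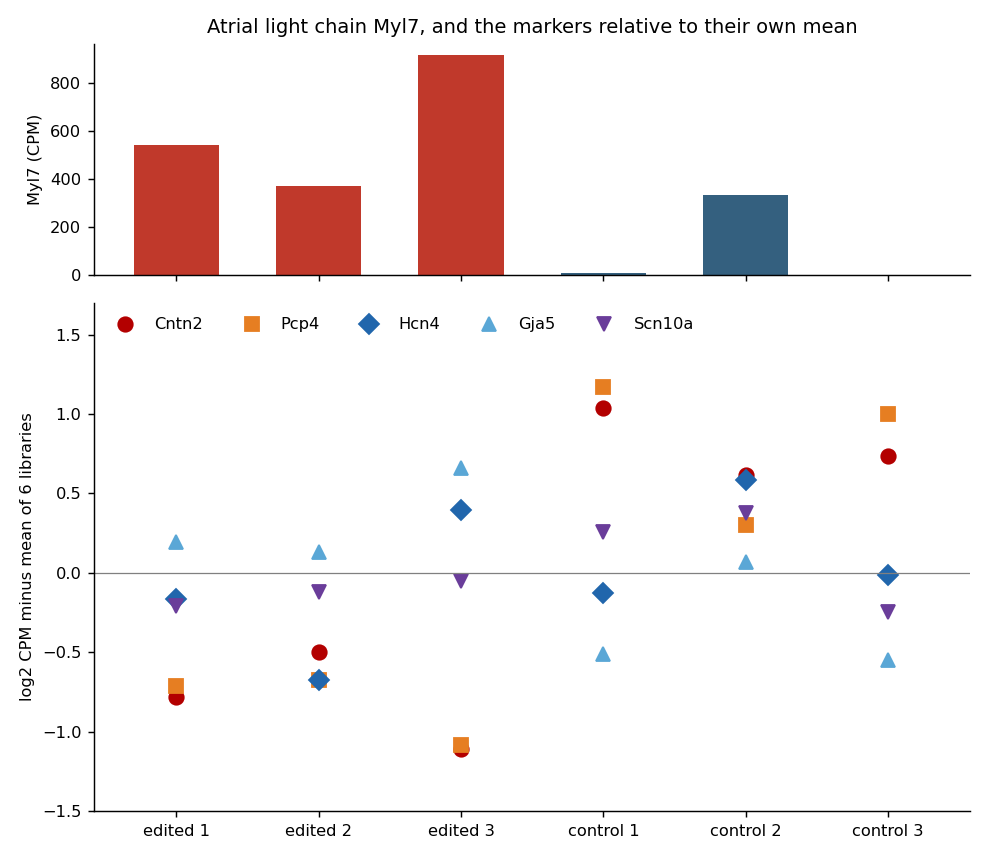
Upper panel, Myl7 in CPM in each library, edited left of control. Lower panel, log2 CPM of 5 markers in the same libraries, each minus its own mean over the 6. Only markers at the same end of their group in edited 3 and control 2 are drawn. Cntn2 and Pcp4 are lowest there, and Hcn4, Gja5 and Scn10a highest.

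The wider conduction program was read from 28 further genes, 14 of nodes and pacemaking and 14 of the bundle and Purkinje network, of which 27 were tested. Among these 1 gene rose and 3 fell, which is 14.8% of those tested, against 9.66% of all tested genes, and the list's median log2 change was 0.00, as over all genes. Of the nodal genes, Tbx18, a factor of the sinus node head and of the epicardium, rose to 14.7, 17.6 and 17.3 CPM in edited hearts, against 11.8, 11.7 and 11.6 CPM in controls (log2 0.49, SE 0.09, adjusted p = 0.00509). Cacna1g, a T-type calcium channel of pacemaker cells, fell to 116, 115 and 107 CPM, against 145, 159 and 151 CPM in controls (log2 -0.43, SE 0.06, adjusted p = 6.38e-04). Smoc2, a matrix protein, fell to 79.4 ± 0.304 CPM in edited hearts, against 90.1 ± 3.13 CPM in controls (log2 -0.18, SE 0.05, adjusted p = 0.0466), and that call was lost without edited 1, edited 3, control 1, control 2 or control 3, without controls 1 and 3 together, and with the Myl7 covariate. Tbx18 was not called without controls 1 and 3 or with the Myl7 covariate (adjusted p = 0.166 and 0.139), with log2 changes of 0.49 and 0.48.

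Of the 14 bundle and Purkinje genes 1 was called, 7.14% of those tested, against 9.66% of all tested genes. Kcna5, a potassium channel gene, fell to 29.3 ± 1.38 CPM in edited hearts, against 35.7 ± 3.72 CPM in controls (SD, n = 3 each, log2 -0.29, SE 0.08, adjusted p = 0.0377), and the call was lost without edited 1, edited 3, control 1 or control 3. The log2 change of Kcna5 was -0.11 both without controls 1 and 3 (adjusted p = 0.757) and with the Myl7 covariate (adjusted p = 0.699). Sema3a, a guidance factor that patterns cardiac nerves, was at 4.27 ± 0.827 and 6.48 ± 1.56 CPM in edited and control hearts (SD, n = 3 each, edgeR adjusted p = 0.0703, and called without edited 1). Nrg1, a ligand that promotes conduction fate in mouse embryos, was at 3.76 ± 0.515 and 2.67 ± 0.239 CPM in edited and control hearts (adjusted p = 0.0953, and called without edited 2). Tbx5, a partner of Nkx2-5 in the bundle and also an atrial gene, was at 44.8, 36.4 and 59.0 CPM in edited hearts and 23.4, 48.5 and 24.0 CPM in controls (adjusted p = 0.499), with a log2 change of 0.54 that turned to -0.05 without controls 1 and 3. Without control 1, or without control 3, the calls among the 28 genes were Tbx18 and Cacna1g alone. Without both of these controls they were Cacna1g, Cacna2d2, Cpne5 and Igfbp5, all lower.

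**Figure D4:**
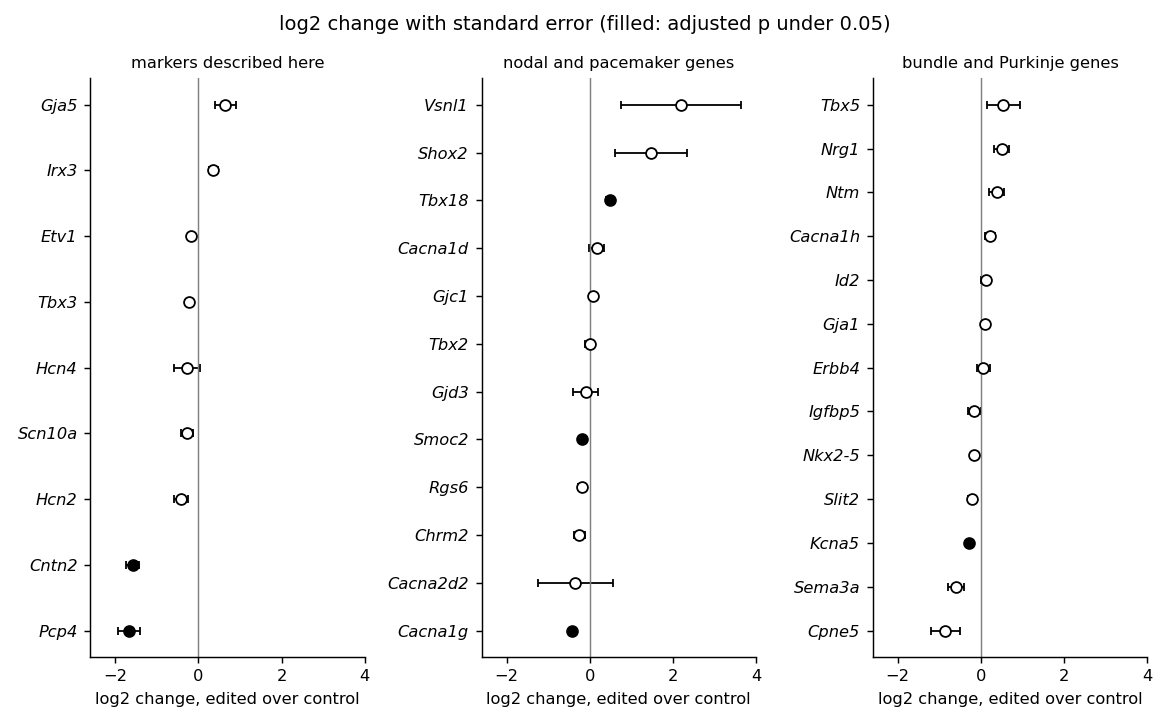
log2 change, edited over control (horizontal axis), with 1 standard error, for the 9 markers, 12 nodal and pacemaker genes and 13 bundle and Purkinje genes, filled where the adjusted p is under 0.05. Cntn2 and Pcp4 stand at -1.58 and -1.67, and Vsnl1 and Shox2, which were not past the threshold, stand furthest to the right with wide errors.

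Several nodal genes were high in 1 edited heart. Isl1, a factor of the sinus node and of cardiac neurons, had 3, 3 and 20 reads in edited hearts and 0 in each control, too few to be tested. Shox2, a sinus node factor, was at 1.07, 0.905 and 4.75 CPM in edited hearts and 0.718, 1.16 and 0.470 CPM in controls (log2 1.48, SE 0.87, adjusted p = 0.384). Edited 3 was the highest library for both genes. Vsnl1, a calcium sensor that marks the sinus node and is also made in atria and neurons, had 83, 8 and 24 reads in edited hearts and 0, 22 and 0 reads in controls, with reads in control 2 and none in controls 1 and 3 (adjusted p = 0.449). Edited 3 was also the highest for the peripheral neuron filament Prph, which was at 0.384, 0.339 and 8.88 CPM in edited hearts and 0.239 to 0.365 CPM in controls.

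Neuron markers bear on Cntn2, Pcp4 and Scn10a, which neurons also make. Of 10 such markers 4 were tested and 50% of these were called, against 9.66% of all tested genes. Uchl1 rose (log2 0.38, SE 0.08, adjusted p = 0.0114), a call lost without edited 3 or control 3, and Dbh fell (log2 -0.87, SE 0.14, adjusted p = 0.00167). Both calls were lost without controls 1 and 3 and with the Myl7 covariate, where Dbh was at -0.69 (adjusted p = 0.157) and -0.68 (adjusted p = 0.111). The summed level of the 10 was 46.8 to 82.3 CPM in edited hearts and 49.1 to 56.4 CPM in controls. Th had 0, 1 and 18 reads and Chat 1, 0 and 7 in edited 1, 2 and 3, and neither had a read in any control. Snap25 had 116, 4 and 79 reads in edited 1, 2 and 3, against 2, 3 and 0 in control 1, 2 and 3, and was not tested. Tubb3, the neuronal tubulin, was at 9.68, 1.98 and 10.7 CPM in edited hearts and 1.26, 1.37 and 0.731 CPM in controls (adjusted p = 0.136), and passed without edited 2. Ret went the other way, at 12.5, 11.9 and 22.1 CPM in edited hearts and 22.8, 19.5 and 20.6 CPM in controls. Its log2 change was -0.44 (SE 0.27, edgeR adjusted p = 0.404), and it was called lower without edited 3. Of 7 Schwann cell markers 6 were tested and 1 rose, 16.7% of those tested. It was Gfra3 (log2 0.93, SE 0.28, adjusted p = 0.0490). Its call was lost without edited 1, edited 2, edited 3, control 1 or control 3, without controls 1 and 3 together, and with the Myl7 covariate. The list summed to 17.8 to 29.6 CPM in edited hearts and 13.2 to 19.2 CPM in controls. The part of nerve tissue in the levels of Cntn2, Pcp4 and Scn10a was not tested.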

How the data were processed

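The submitters' processing notes name the build mm10 and, as tools, featureCounts, STAR, cutadapt and FastQC. For their versions, the strand setting and multi-mapped reads: not given in the sources used here. Deposited was 1 table of raw read counts per gene, with exon lengths, in 2 columns per library that differed for 0 genes, and each pair was counted as 1 library. From the counts, edgeR 4.0.16 (R 4.3.3) kept 14879 genes with filterByExpr, scaled libraries by TMM (factors 0.971 to 1.039) and compared edited with control by the robust quasi-likelihood test, adjusted by Benjamini-Hochberg over all tested genes at 0.05. SEs come from the test's F. TPM used the deposited lengths. Totals of 17062412 to 23097998 counts set the precision, and reads are not independent molecules.

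The members and lists were chosen with earlier results of these data known. The rule for naming took the 9 markers, Camk2d, Myl7, Nppa and Myl4, up to 4 genes of each list with the smallest p, genes at 0 in a library, and the 3 nearest profiles among genes of at least 1 CPM. Not every gene under this rule is described. Irx6, Scn11a and Cntn6, each at 0 in a library and not tested, are among those left out. Hcn3, Gja3, Gjc1, Irx4, Shox2, Tbx5 and Prph were chosen after their values were seen. A few listed genes enter the counts and sums without being reported here. The steps were tested on simulated counts. Alternatives used limma 3.58.1 and DESeq2 1.42.0, and the libraries left out kept the 14879 genes.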

Additional observations from a re-analysis of the deposited data

How the results depend on the processing

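The calls among the 9 markers, 2 with all libraries, were 2 to 3 when 1 library was left out, 4 with DESeq2's Wald test (Hcn2 and Irx3 added) and 6 with limma voom (Gja5, Hcn2, Irx3 and Tbx3 added). Cntn2 was called in every alternative run, and no marker changed sign in any. Among the 28 wider conduction genes the calls, 4 with all libraries, were 2 to 6 with 1 library left out, 2 with upper-quartile scaling, 8 with no filter, 10 with voom and 2 with Myl7 as a covariate. Over all genes the 1438 calls were 2239 with no filter, 2285 with voom, 169 without controls 1 and 3, 126 with Myl7 as a covariate and 446 to 1553 with 1 library left out, of which 728 without edited 3, 850 without control 1 and 446 without control 3. Upper-quartile scaling gave 849 higher and 531 lower, against 733 and 705 with TMM. Without controls 1 and 3, log2 changes turned to -0.42 for Nppa, -0.02 for Sln, 0.00 for Camk2b and -0.05 for Tbx5. With Myl7 as a covariate they turned to -0.69 for Nppa, -0.01 for Myl4, -1.04 for Sln, -0.14 for Camk2b and -0.07 for Tbx5. Camk2b ranged from -0.06 without control 3 to 0.23 without control 1, and was at -0.04 without edited 1. The cause was not tested. Same-numbered libraries did not deviate together (correlations 0.020, -0.096 and -0.076), so the replicate numbers were not taken to pair hearts. With the replicate number as a block the calls were 2 markers, 3 wider genes and 1077 genes in all. Depth limits Pcp4, at 13 to 59 reads, and Hcn3, at 4 to 26.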

Other observations

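Further lists give the setting of these markers. Of 5 ventricular markers 40% were called, against 9.66% of all tested genes. Hey2, a ventricular repressor, was called higher (log2 0.43, SE 0.12, adjusted p = 0.0378 in edgeR's test) and Myl3 lower (log2 -0.25, SE 0.06, adjusted p = 0.0142). The list summed to 9581 to 10147 CPM in edited hearts and 10398 to 12519 CPM in controls. The call of Hey2 was lost without edited 1, edited 2, control 1, control 2 or control 3, and that of Myl3 without edited 3, control 1 or control 3. Without controls 1 and 3 together, and with Myl7 as a covariate, neither was called, and the log2 change of Myl3 was -0.11 and -0.13. Of 7 arterial endothelial markers, which share Gja5 with conduction tissue, 0 were called by edgeR's test, 0 by DESeq2 and 0 by limma voom, with 1 at an unadjusted p under 0.05 in edgeR's test, and the list summed to 229 to 274 CPM in edited hearts and 237 to 253 CPM in controls. Of 7 calmodulin and CaMKII genes, listed because Pcp4 binds calmodulin, 1 was called, Camk2d, which is 14.3% of those tested.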
